A study of Mus musculus with 20 samples.

Results

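The Cyp3a family comprised 8 genes in the liver count table, *Cyp3a11*, *Cyp3a13*, *Cyp3a16*, *Cyp3a25*, *Cyp3a41a*, *Cyp3a41b*, *Cyp3a44* and *Cyp3a59*, out of 54532 genes in all. They were selected by symbol through their Ensembl identifiers. The other 3 rows with a Cyp3a symbol had at most 4 counts in any mouse and were not included. *Cyp3a11*, *Cyp3a13*, *Cyp3a25* and *Cyp3a59* passed the filter of a CPM (counts scaled to a fixed library size) of 2 or more in 3 or more mice and were tested among 12289 genes. The other 4 members did not pass it and are described by their counts.

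CYP3A enzymes are cytochrome P450 monooxygenases of the endoplasmic reticulum that oxidize drugs, steroid hormones and bile acids in hepatocytes and enterocytes. Their transcription is induced by ligands of the nuclear receptors PXR and CAR, and mouse *Cyp3a11* is the standard readout of PXR activity in liver. *Cyp3a41a*, *Cyp3a41b* and *Cyp3a44* are known as female-predominant liver genes, and *Cyp3a16* is best known from fetal liver.

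Liver RNA was sequenced from 20 male C57BL/6J mice made obese by 12 weeks of high-fat diet (HFD), so that every group, the chow groups included, had been fed HFD before surgery. Sham surgery or Roux-en-Y gastric bypass (RYGB), which reroutes food past most of the stomach and the upper intestine, was followed by 8 weeks on chow or HFD. Sham Chow and RYGB Chow received chow, and Sham HFD and RYGB HFD the high-fat diet, with 5 mice per group and 1 library per mouse. Sham HFD mice were the heaviest by the study's own account, so body weight and diet cannot be told apart in the comparison of the sham groups. For the same reason body weight and surgery cannot be told apart in Sham HFD vs. RYGB HFD or in the interaction. Total counts ran from 14604854 to 22537498 per mouse. Hepatocyte markers summed to between 76611 and 126960 CPM in every mouse. On the enterocyte list of 6 genes, the enzymes *Sis*, *Lct* and *Alpi* had at most 3 counts in any mouse, while *Fabp2* and *Apoa4* passed the filter.

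All 8 genes lie on chromosome 5 (GRCm38, annotation of GENCODE M21). *Cyp3a13* (ENSMUSG00000029727, chr5:137892932-137921619, minus strand) stands apart from the rest. The other 7 form a cluster that runs from *Cyp3a16* (ENSMUSG00000038656, chr5:145436309-145469723, minus strand) through *Cyp3a41b*, *Cyp3a41a* and *Cyp3a44* to *Cyp3a11* (ENSMUSG00000056035, chr5:145854426-145879964, minus strand), *Cyp3a25* (ENSMUSG00000029630, chr5:145977194-146009618, minus strand) and *Cyp3a59* (ENSMUSG00000061292, chr5:146079257-146113287, plus strand). The promoters of the 4 tested genes and of *Cyp3a16* are printed here because these genes carried nearly all Cyp3a counts, and because *Cyp3a13* differed from the others in its response to diet. Each stretch of 300 bases holds 250 bases before the RefSeq start and 50 from it (build GRCm38.p6), read in the direction of the gene. Capitals mark matches on either strand to CAAAGTCCA or CAAAGGTCA, letters known from sites of the hepatocyte factor HNF4A, and to AGGTCA or AGTTCA, the short elements from which nuclear receptor sites are built. AGGTCA also lies inside CAAAGGTCA.
Cyp3a11: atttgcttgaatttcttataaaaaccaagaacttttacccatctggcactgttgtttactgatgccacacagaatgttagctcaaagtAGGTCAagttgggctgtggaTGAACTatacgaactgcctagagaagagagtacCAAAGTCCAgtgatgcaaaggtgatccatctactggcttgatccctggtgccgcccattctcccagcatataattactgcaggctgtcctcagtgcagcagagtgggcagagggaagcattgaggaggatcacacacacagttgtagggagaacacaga
Cyp3a16: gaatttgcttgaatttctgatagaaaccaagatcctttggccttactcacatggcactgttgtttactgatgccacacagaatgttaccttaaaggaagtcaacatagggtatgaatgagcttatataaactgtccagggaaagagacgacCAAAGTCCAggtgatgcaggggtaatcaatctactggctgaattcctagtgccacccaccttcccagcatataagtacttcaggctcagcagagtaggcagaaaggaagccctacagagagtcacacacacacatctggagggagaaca
Cyp3a25: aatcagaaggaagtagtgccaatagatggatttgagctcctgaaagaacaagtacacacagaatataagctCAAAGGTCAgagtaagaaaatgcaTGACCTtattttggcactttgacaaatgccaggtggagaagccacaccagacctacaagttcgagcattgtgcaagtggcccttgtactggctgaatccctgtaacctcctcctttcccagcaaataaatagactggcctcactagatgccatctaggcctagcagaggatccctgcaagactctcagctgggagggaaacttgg
Cyp3a59: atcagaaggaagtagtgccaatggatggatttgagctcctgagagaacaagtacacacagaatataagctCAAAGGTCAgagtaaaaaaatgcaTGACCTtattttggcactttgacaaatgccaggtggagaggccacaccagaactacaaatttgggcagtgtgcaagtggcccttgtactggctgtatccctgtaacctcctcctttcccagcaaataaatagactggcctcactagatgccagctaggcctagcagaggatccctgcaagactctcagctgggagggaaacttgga
Cyp3a13: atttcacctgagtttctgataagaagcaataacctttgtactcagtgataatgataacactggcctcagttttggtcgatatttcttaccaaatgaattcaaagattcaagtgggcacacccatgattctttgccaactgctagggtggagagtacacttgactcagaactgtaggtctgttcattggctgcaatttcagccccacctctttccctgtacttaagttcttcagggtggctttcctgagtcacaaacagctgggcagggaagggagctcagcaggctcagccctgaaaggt

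Their positions are chr5:145879805-145880104 for *Cyp3a11*, chr5:145469674-145469973 for *Cyp3a16*, chr5:146009569-146009868 for *Cyp3a25*, chr5:146079008-146079307 for *Cyp3a59* and chr5:137921570-137921869 for *Cyp3a13*. CAAAGTCCA was found in 4 of the 8 member promoters, among them *Cyp3a11* at bases -109 to -101 and *Cyp3a16* at bases -99 to -91 from the start, and in 0.479% of 32544 RefSeq promoters of the same length. GENCODE M21 places the *Cyp3a11* start upstream of the RefSeq start used here, so that by GENCODE its match lies inside the gene. CAAAGGTCA was found in *Cyp3a25* at bases -179 to -171 and in *Cyp3a59* at bases -180 to -172, and in 0.482% of all promoters. AGGTCA was present in 4 members and 16.2% of all promoters, and AGTTCA in 3 members and 14.0% of all. None of these letters occurred in the window of *Cyp3a13*. The promoters of *Cyp3a25* and *Cyp3a59* were 96.3% identical over 299 aligned bases, those of *Cyp3a11* and *Cyp3a16* 82.9% over 286, and those of *Cyp3a11* and *Cyp3a13* 64.9% over 271.

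Sequence likeness also bears on the counts. The coding transcripts of *Cyp3a41a* and *Cyp3a41b* were 99.9% identical, and 82.7% of all stretches of 150 bases, the read length, in *Cyp3a41b* occurred unchanged in *Cyp3a41a*. Counts of this pair are therefore uncertain, since how reads that fit several genes were treated is not given in the sources used here. *Cyp3a25* and *Cyp3a59* were 97.0% identical, but only 0.702% of stretches of 150 bases and 11.2% of stretches of 75 bases in *Cyp3a25* were found in another Cyp3a transcript. For *Cyp3a11* the share was 0.0% at 150 bases and 3.66% at 75 bases.

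*Cyp3a11*, the most abundant family member on chow, fell steeply on HFD in sham and in RYGB mice, and was lower still in RYGB HFD than in Sham HFD. TMM-scaled levels in Sham Chow were 5673, 5305, 4978, 5279 and 5750 CPM in mice 1 to 5, with a mean of 5397 ± 316 (SD, n = 5). In RYGB Chow they were 6610, 6691, 3962, 5494 and 7865 CPM, with a mean of 6124 ± 1472 (n = 5). The Sham Chow mice lay close together, while the RYGB Chow mice extended below and above them. In Sham HFD the levels were 507, 1031, 883, 724 and 849 CPM, with a mean of 799 ± 196 (n = 5). In RYGB HFD they were 419, 328, 729, 487 and 435 CPM, with a mean of 480 ± 151 (n = 5). Every HFD mouse lay below every chow mouse, whereas RYGB HFD replicate 3 overlapped the Sham HFD mice. Among the 12286 tested genes with an annotated length, ranked by mean CPM per kb of merged exons, *Cyp3a11* stood at rank 56 in Sham Chow and 44 in RYGB Chow, and on HFD at rank 269 in sham and 478 in RYGB mice. Its merged exons span 5.09 kb and its longest coding transcript 2.34 kb, so these ranks may place it too low.

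*Cyp3a25*, the second family member by level on chow, fell by less. Its levels were 971, 847, 852, 876 and 800 CPM in Sham Chow (mean 869 ± 63.1, n = 5) and 1074, 951, 713, 987 and 1334 CPM in RYGB Chow (mean 1012 ± 224, n = 5). On HFD they were 586, 568, 609, 645 and 592 CPM in sham mice (mean 600 ± 28.9, n = 5) and 534, 460, 612, 477 and 395 CPM in RYGB mice (mean 495 ± 81.7, n = 5). All HFD mice were below all chow mice, and the HFD groups overlapped through RYGB HFD replicate 3.

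*Cyp3a59* was expressed at a much lower level. In Sham Chow it was at 99.1, 49.4, 52.4, 73.0 and 46.9 CPM (mean 64.2 ± 22.1, n = 5), and in RYGB Chow at 121, 93.1, 53.6, 82.5 and 190 CPM (mean 108 ± 51.6, n = 5). In Sham HFD it was at 35.4, 36.7, 34.0, 48.0 and 30.8 CPM (mean 37.0 ± 6.56, n = 5), and in RYGB HFD at 21.2, 19.3, 26.6, 15.2 and 14.5 CPM (mean 19.3 ± 4.91, n = 5). The RYGB HFD mice lay below all mice of the other groups, while Sham HFD replicate 4 reached the range of Sham Chow. The coefficient of variation of *Cyp3a59* was 34.4% in Sham Chow and 47.8% in RYGB Chow, above that of *Cyp3a11* and *Cyp3a25*. On HFD it was 17.7% in sham and 25.4% in RYGB mice, below the 24.6% and 31.5% of *Cyp3a11*. RYGB Chow replicate 3 was the lowest and replicate 5 the highest of its group for all 3 genes.

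*Cyp3a13*, the member outside the cluster, was at nearly the same level in every group. Its means were 155 ± 17.1 CPM in Sham Chow and 151 ± 16.8 in RYGB Chow, and on HFD 147 ± 12.8 in sham and 160 ± 16.6 in RYGB mice (n = 5 each). Single mice ran from 132 to 179, 123 to 167, 132 to 162 and 140 to 183 CPM in that order, so all groups overlapped. The values of all 4 genes by mouse are drawn in the plot of levels.

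**Figure D1:**
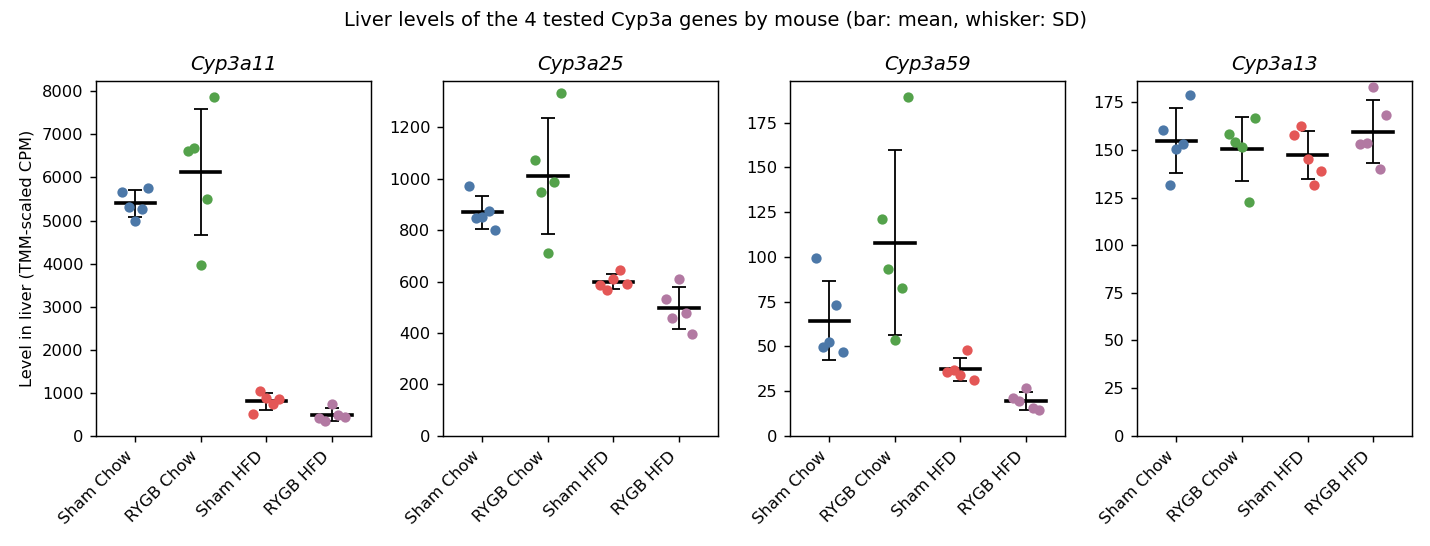
TMM-scaled CPM (vertical axis, linear from 0) of *Cyp3a11*, *Cyp3a25*, *Cyp3a59* and *Cyp3a13* in each mouse, by group, with the mean as a bar and the SD as a whisker (n = 5). *Cyp3a11* lay between 3962 and 7865 CPM on chow and between 328 and 1031 CPM on HFD, while *Cyp3a13* stayed between 123 and 183 CPM in all mice.

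The remaining members were close to the limit of detection, and counting error alone is covered by the floor of 3 counts per mouse used for them, because reads carry no molecular identifiers. *Cyp3a16* had 15, 14, 11, 2 and 6 counts in Sham Chow and 4, 31, 8, 16 and 34 in RYGB Chow. It had 0, 0, 1, 0 and 1 counts in Sham HFD and 0 in all 5 RYGB HFD mice. Every HFD mouse was below every chow mouse of the same surgery (exact permutation test on log2(CPM + 0.5), two-sided p = 0.00794, the smallest that 5 against 5 allow). Against the floor, its mean level was at least 3.28-fold higher in Sham Chow than in Sham HFD and at least 5.79-fold higher in RYGB Chow than in RYGB HFD. The floor does not cover misplaced reads. The *Cyp3a16* transcript was 91.7% identical to that of *Cyp3a11*, which held 72115 to 138954 counts per mouse in RYGB Chow. Of its stretches, 0.0% at 150 bases and 1.63% at 75 bases occurred in *Cyp3a11*. Whether *Cyp3a11* reads entered the *Cyp3a16* counts was not tested.

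*Cyp3a41b* was counted in RYGB Chow, with 7, 3, 1, 2 and 0 counts, and at 0 in the other 15 mice. *Cyp3a44* had 2, 4, 4, 0 and 3 counts in RYGB Chow and at most 1 count in each other mouse. For both, RYGB Chow exceeded Sham Chow with an exact two-sided permutation p = 0.0476, which was not adjusted, and neither passed in an edgeR fit without the filter (adjusted p = 0.493 and 0.595). *Cyp3a41a* had 4 counts in Sham HFD replicate 1 and 0 elsewhere. These levels are at or near 3 counts, and reads of *Cyp3a41a* and *Cyp3a41b* may be exchanged between the pair.

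Between genes, levels were compared per kb of the longest coding transcript, because the merged exons of *Cyp3a11* (5.09 kb) include a retained intron and are longer than its coding transcript (2.34 kb). On this scale the order in Sham Chow was *Cyp3a11* (2303 ± 135 CPM per kb), *Cyp3a25* (435 ± 31.6), *Cyp3a13* (52.4 ± 5.80) and *Cyp3a59* (32.3 ± 11.1). In RYGB Chow *Cyp3a59* (54.3 ± 25.9) and *Cyp3a13* (51.0 ± 5.67) did not differ beyond their spread. In Sham HFD *Cyp3a11* (341 ± 83.8) and *Cyp3a25* (300 ± 14.5) were no longer apart, and in RYGB HFD *Cyp3a25* (248 ± 40.8) had the higher mean of this pair against *Cyp3a11* (205 ± 64.4), again within the spread. *Cyp3a16* was at 0.285 CPM per kb in Sham Chow and 0.582 in RYGB Chow, below all tested members.

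The make-up of the family therefore differed between diets. *Cyp3a11* held 81.6 ± 1.25% of the Cyp3a level per kb in Sham Chow and 80.9 ± 1.42% in RYGB Chow. On HFD it held 47.4 ± 6.91% in sham and 39.1 ± 5.12% in RYGB mice (n = 5 each). *Cyp3a25* went from 15.4 ± 1.06% and 15.8 ± 1.23% on chow to 42.8 ± 5.65% on HFD in sham and 48.3 ± 4.40% in RYGB mice. No chow mouse overlapped an HFD mouse in either share. The ratio of *Cyp3a11* to *Cyp3a25* per kb was 5.32 ± 0.478 in Sham Chow and 5.16 ± 0.520 in RYGB Chow, whereas on HFD it was 1.14 ± 0.307 in sham and 0.821 ± 0.175 in RYGB mice. The share of *Cyp3a13* rose from 1.86 ± 0.165% in Sham Chow to 10.7 ± 1.65% in RYGB HFD while its own level changed little. Summed over the 8 genes, the level was 6486 ± 353 CPM in Sham Chow and 7396 ± 1738 in RYGB Chow, against 1583 ± 190 (sham) and 1154 ± 233 (RYGB) on HFD.

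**Figure D2:**
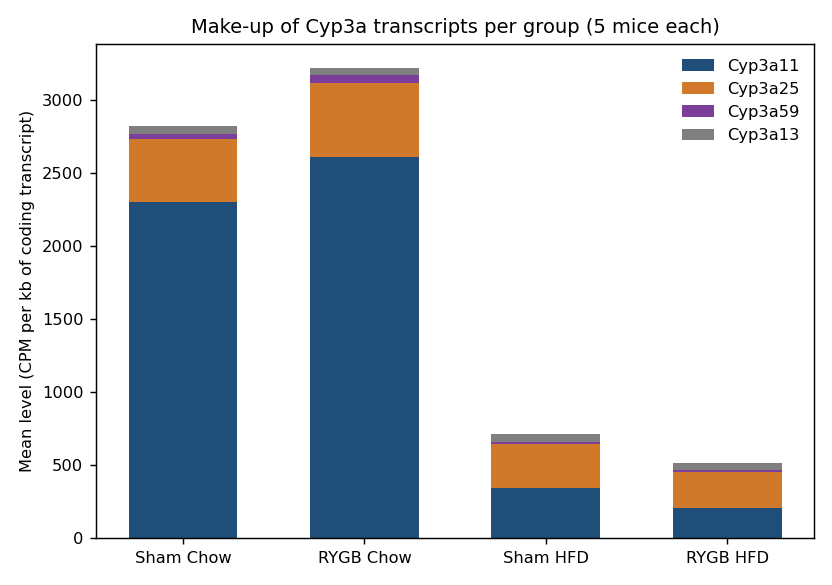
Stacked bars of the mean level per group in CPM per kb of coding transcript (vertical axis, linear from 0) for the 4 tested Cyp3a genes, 5 mice per group. *Cyp3a11* made up 81.6% of the family on this scale in Sham Chow and 39.1% in RYGB HFD.

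The diets after surgery are compared here first in sham mice. In Sham Chow vs. Sham HFD, 3 of 4 tested Cyp3a genes were lower on HFD, where 10.7% of all tested genes were (edgeR's quasi-likelihood test, Benjamini-Hochberg adjusted p under 0.05, also used for the adjusted p-values that follow). *Cyp3a11* fell by 2.76 on the log2 scale (SE 0.21, adjusted p = 5.33e-08), a level 6.76-fold lower, and its p-value ranked 4 of 12289. *Cyp3a25* fell by 0.54 (SE 0.13, adjusted p = 0.00506) and *Cyp3a59* by 0.80 (SE 0.26, adjusted p = 0.0363). The call of *Cyp3a59* was lost when single mice were left out, for example without Sham Chow replicate 1 (log2 fold change -0.58, adjusted p = 0.111). *Cyp3a13* had a log2 fold change of -0.07 (SE 0.10, adjusted p = 0.613). All Sham HFD mice were below all Sham Chow mice for 2 of the 4 genes, *Cyp3a11* and *Cyp3a25*, which held for 8.06% of all tested genes. For these 2 genes the exact two-sided permutation p was 0.00794, and for *Cyp3a59* it was 0.0159. In bulk tissue, fewer cells of a type and less RNA per cell cannot be told apart. Markers of other cells moved in the same comparison. All 6 stellate cell markers and 5 of 8 macrophage markers were higher in Sham HFD, where 1337 of 12289 tested genes were. With DESeq2 and with limma-voom 5 of the 6 stellate markers passed. The stellate marker *Des* spread widely in Sham HFD, at 10.2 ± 12.3 CPM against 4.32 ± 0.386 in Sham Chow. The summed enterocyte list was at 771 to 1612 CPM in Sham HFD against 81.3 to 187 in Sham Chow, with *Sis*, *Lct* and *Alpi* at or under 3 counts throughout. Its 2 tested genes were both higher. *Apoa4* was at 874 ± 341 CPM in Sham HFD against 65.2 ± 14.0 in Sham Chow, and *Fabp2* at 164 ± 6.03 against 69.0 ± 27.2. Of 9 hepatocyte markers 5 were lower in Sham HFD, with a median log2 fold change of -0.43 over the list, and the part of these shifts in the Cyp3a values was not tested.

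In RYGB Chow vs. RYGB HFD, the diet comparison after bypass, the same 3 genes were lower on HFD, where 1.65% of all tested genes were. *Cyp3a11* fell by 3.67 (SE 0.22, adjusted p = 2.06e-09), a level 12.8-fold lower, with the smallest p-value of all tested genes and the fold change at rank 7 from the lowest. *Cyp3a59* fell by 2.48 (SE 0.28, adjusted p = 2.33e-05), or 5.57-fold, at rank 9 by p-value. *Cyp3a25* fell by 1.03 (SE 0.13, adjusted p = 6.49e-05), or 2.04-fold, at rank 15. *Cyp3a13* had a log2 fold change of 0.08 (SE 0.10, adjusted p = 0.705). For the 3 genes that fell, all RYGB HFD mice lay below all RYGB Chow mice (exact permutation p = 0.00794), which held for 2.41% of all tested genes. Macrophage markers had 0 of 8 and stellate markers 0 of 6 calls in this comparison, with DESeq2 and limma-voom at 0 as well, 0 and 1 at an unadjusted p under 0.05, and median log2 fold changes of 0.08 and 0.15. Of 9 hepatocyte markers 1 was higher, and the summed enterocyte list was at 72.4 to 306 CPM in RYGB Chow and 133 to 293 in RYGB HFD. The part of these values in the Cyp3a levels was not tested.

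Surgery was compared at each diet. On HFD the sham mice were also the heavier ones, so surgery and body weight cannot be told apart there. In Sham HFD vs. RYGB HFD, 2 of 4 Cyp3a genes were lower after RYGB, where 7.9% of all tested genes were. *Cyp3a11* fell by 0.74 (SE 0.20, adjusted p = 0.0140), or 1.67-fold, and *Cyp3a59* by 0.93 (SE 0.27, adjusted p = 0.0220), or 1.91-fold. *Cyp3a25* had a log2 fold change of -0.28 (SE 0.13, adjusted p = 0.142) and *Cyp3a13* of 0.12 (SE 0.10, adjusted p = 0.441). All RYGB HFD mice lay below all Sham HFD mice for *Cyp3a59* alone among the 4, which held for 7.43% of all tested genes. The exact two-sided permutation p was 0.00794 for *Cyp3a59*, 0.0238 for *Cyp3a11* and 0.0397 for *Cyp3a25*. The call of *Cyp3a59* was lost without Sham HFD replicate 4 (adjusted p = 0.0598), RYGB HFD replicate 4 (0.0591) or RYGB HFD replicate 5 (0.0577). In this comparison 6 of 9 hepatocyte markers were higher and 1 was lower after RYGB, and 3 of 6 stellate markers were lower. Over all 12289 tested genes 1050 were higher. Both enterocyte-list genes that were tested were also lower, and that list summed to 771 to 1612 CPM in Sham HFD and 133 to 293 in RYGB HFD. The part of these values in the Cyp3a levels was not tested.

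In Sham Chow vs. RYGB Chow, 0 of 4 Cyp3a genes passed in edgeR, with DESeq2 or with limma-voom, and 1 had an unadjusted p under 0.05 in edgeR. Over all tested genes 0.057% passed in either direction. The log2 fold changes were 0.18 for *Cyp3a11* (SE 0.20, adjusted p = 0.792), 0.22 for *Cyp3a25* (SE 0.13, adjusted p = 0.559), 0.75 for *Cyp3a59* (SE 0.26, adjusted p = 0.296) and -0.04 for *Cyp3a13* (SE 0.10, adjusted p = 0.925). All groups overlapped, and the RYGB Chow mice extended from below to above the Sham Chow mice for *Cyp3a11* and *Cyp3a25*.

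The surgery by diet interaction, the diet change in RYGB mice less that in sham mice, was negative and past the threshold for 1 of 4 genes, where 2.58% of all tested genes were. This was *Cyp3a59* (log2 value -1.68, SE 0.38, adjusted p = 0.0136). *Cyp3a11* (-0.92, SE 0.28, adjusted p = 0.0611) and *Cyp3a25* (-0.49, SE 0.18, adjusted p = 0.114) were negative without passing, and *Cyp3a13* was at 0.16 (SE 0.13, adjusted p = 0.549). *Cyp3a11* passed with DESeq2 (adjusted p = 0.0164) and when RYGB Chow replicate 3, Sham HFD replicate 1 or RYGB HFD replicate 3 was left out. Whether it passed thus depended on the tool and on single mice, while its value stayed between -1.12 and -0.81 under all alternatives. The comparisons share groups and are not independent of each other. The log2 fold changes of the 4 genes are drawn by comparison.

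**Figure D3:**
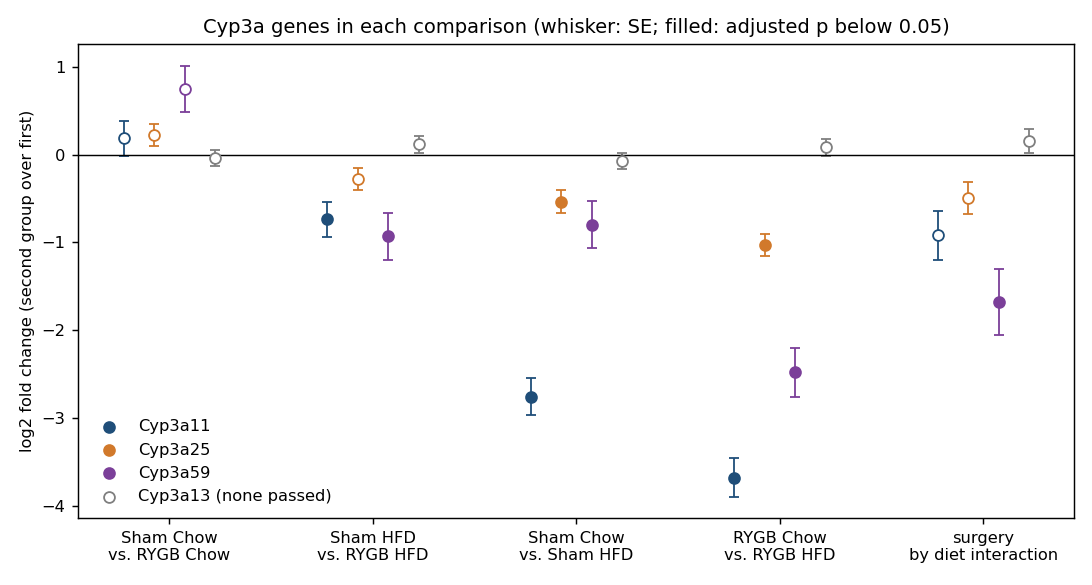
log2 fold changes (vertical axis, second group over first) of the 4 tested Cyp3a genes in the 4 comparisons and the interaction, with the SE as whiskers and filled points where the adjusted p was below 0.05. *Cyp3a11* reached -2.76 in sham and -3.67 in RYGB mice on HFD, and *Cyp3a13* lay between -0.07 and 0.16 throughout.

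Other genes near the cluster were examined in a window of 1000 kb on each side of the *Cyp3a11* start, which was chosen after the values were seen. Besides the 3 tested Cyp3a genes it held 19 tested genes. In RYGB Chow vs. RYGB HFD 0 of the 19 passed in edgeR and 0 with limma-voom, 1 passed with DESeq2, and 3 had an unadjusted p under 0.05. Their log2 fold changes ran from -0.28 to 1.38. In Sham Chow vs. Sham HFD 4 were lower and 3 higher, from -0.89 to 1.70, where 10.7% of all tested genes were lower and 1337 of 12289 higher. No other tested gene in the window reached the fall of *Cyp3a11* in either comparison, and the 3 Cyp3a genes were the lowest 3 after bypass. In sham mice they were not, since the lowest of the 19, at -0.89, lay below *Cyp3a59* (-0.80) and *Cyp3a25* (-0.54).

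**Figure D4:**
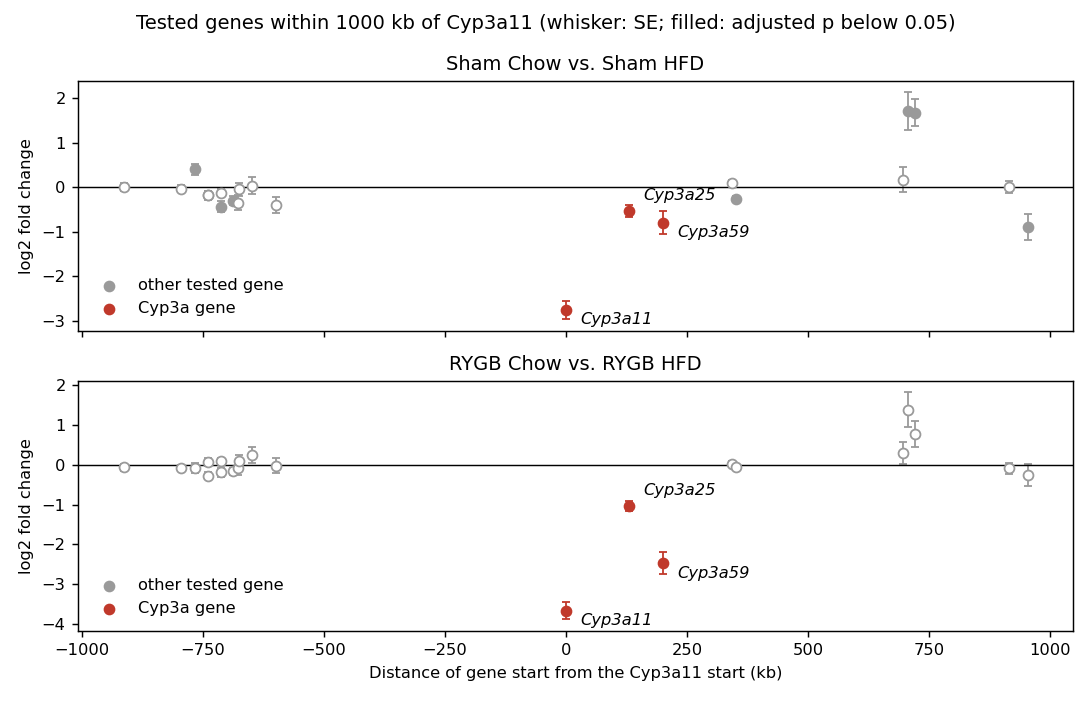
log2 fold change on HFD (vertical axis, with SE) of tested genes by the distance of their start from that of *Cyp3a11* in kb (horizontal axis), for sham mice above and RYGB mice below. In RYGB mice the 3 Cyp3a genes, at 0, 130 and 199 kb, lay between -3.67 and -1.03, and the other 19 genes between -0.28 and 1.38.

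The transcription factors that act on Cyp3a genes changed little by comparison. *Nr1i2*, which encodes PXR, was at 81.5 ± 14.4 CPM in Sham Chow and 92.5 ± 10.3 in RYGB Chow, and on HFD at 66.8 ± 2.78 in sham and 87.8 ± 23.9 in RYGB mice (n = 5 each). Its log2 fold change was -0.29 (SE 0.14, adjusted p = 0.156) in Sham Chow vs. Sham HFD and -0.08 (SE 0.14, adjusted p = 0.840) in RYGB Chow vs. RYGB HFD. *Nr1i3*, which encodes CAR, was at 49.0 ± 15.9, 58.5 ± 11.4, 54.2 ± 7.82 and 63.3 ± 17.7 CPM in the same order of groups and passed in no comparison. *Rxra*, the shared partner of both receptors, was higher in RYGB HFD than in Sham HFD by 0.29 (SE 0.09, adjusted p = 0.0245). Of 8 tested regulators, 2 were lower in Sham HFD than in Sham Chow, *Hnf4a* (-0.43, SE 0.13, adjusted p = 0.0267) and *Cebpa* (-0.30, SE 0.09, adjusted p = 0.0156), both hepatocyte factors. In RYGB Chow vs. RYGB HFD 0 of 8 passed in edgeR, DESeq2 or limma-voom, and 1 had an unadjusted p under 0.05. In Sham HFD vs. RYGB HFD 2 were higher, *Rxra* and *Hnf4a* (0.49, SE 0.13, adjusted p = 0.0166). Over all 12289 tested genes, 1337 were higher and 1319 lower in Sham HFD than in Sham Chow. In RYGB HFD, 245 were higher and 203 lower than in RYGB Chow, and 1050 were higher and 971 lower than in Sham HFD. The lists here and below are to be read beside these counts. RNA levels of a receptor do not measure its ligands or its activity, and the part of these factors in the Cyp3a levels was not tested.

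CYP3A enzymes receive electrons from cytochrome P450 oxidoreductase, encoded by *Por*, and from cytochrome b5. *Por* was at 414 ± 123 CPM in Sham Chow and 254 ± 37.3 in Sham HFD, a fall by 0.70 (SE 0.17, adjusted p = 0.00644). It was at 497 ± 108 CPM in RYGB Chow and 344 ± 50.3 in RYGB HFD, with a log2 fold change of -0.53 (SE 0.17, adjusted p = 0.0897). *Pgrmc1*, a heme-binding protein that associates with P450 enzymes, fell by 0.45 in RYGB Chow vs. RYGB HFD (SE 0.08, adjusted p = 0.00205) and by 0.52 in Sham HFD vs. RYGB HFD (SE 0.08, adjusted p = 1.12e-04). *Cyb5b*, a cytochrome b5 of the outer mitochondrial membrane, also fell by 0.52 in the latter (SE 0.11, adjusted p = 0.00243). Of the 5 partners, 1 was lower in Sham HFD than in Sham Chow and 1 in RYGB HFD than in RYGB Chow, where 10.7% and 1.65% of all tested genes were.

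**Figure D5:**
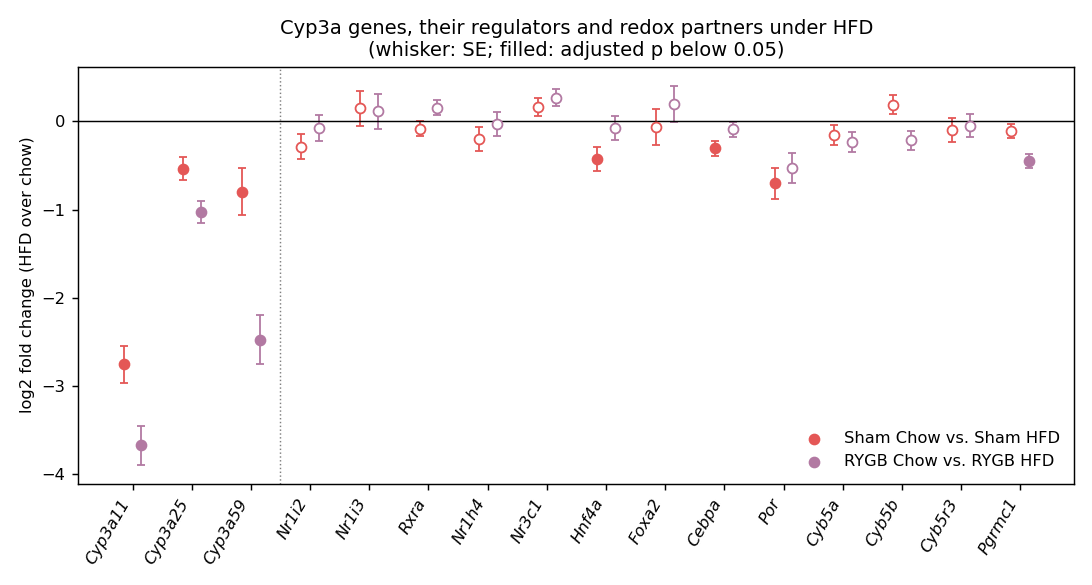
log2 fold changes of HFD over chow (vertical axis, with SE) for 3 Cyp3a genes, left of the dotted line, and for 8 regulators and 5 redox partners, in sham and in RYGB mice, with filled points where the adjusted p was below 0.05. The regulators lay between -0.43 and 0.27, whereas *Cyp3a11* was at -2.76 and -3.67.

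Other known PXR and CAR targets did not move as 1 block. Of 19 tested, 6 were lower and 4 higher in Sham HFD than in Sham Chow, with a median log2 fold change of -0.09 against 0.00 over all tested genes. Lower were *Cyp2c55*, an oxygenase of arachidonic acid (-2.57, SE 0.38, adjusted p = 9.21e-05), the classical CAR target *Cyp2b10* (-2.48, SE 0.52, adjusted p = 0.00215) and the carboxylesterase *Ces2a* (-2.31, SE 0.15, adjusted p = 6.60e-09). Higher were the steroid hydroxylase *Cyp2a4* (5.34, SE 0.75, adjusted p = 6.02e-05), the drug efflux pump *Abcb1a* (1.11, SE 0.31, adjusted p = 0.0137) and the retinal dehydrogenase *Aldh1a1* (0.46, SE 0.15, adjusted p = 0.0292). In RYGB Chow vs. RYGB HFD 11 of 19 were lower and 0 higher, with a median of -1.19. Among them were *Cyp2c55* (-3.88, SE 0.41, adjusted p = 1.10e-05) and the glutathione transferase *Gsta1* (-3.52, SE 0.59, adjusted p = 0.00164). *Cyp2b10* was also among them, and at 0.0118 ± 0.0265 CPM in RYGB HFD it was nearly uncounted, so no fold is given for it.

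In Sham HFD vs. RYGB HFD 8 of these 19 targets were lower and 2 higher, with a median of -0.84. *Cyp2a4* was at 22.2 ± 10.4 CPM in Sham HFD and 0.406 ± 0.379 in RYGB HFD, and *Gsta1* at 5.59 ± 1.98 and 0.418 ± 0.444 CPM. *Ces2a* was higher by 0.51 (SE 0.14, adjusted p = 0.0190) and *Ugt1a1*, the bilirubin glucuronosyltransferase, by 0.43 (SE 0.08, adjusted p = 0.00102). The interaction was negative and past the threshold for 7 of the 19 targets, where 2.58% of all tested genes were. Among those 7, *Cyp2a4* (-8.64, SE 1.08, adjusted p = 1.59e-04), *Gsta1* (-3.55, SE 0.75, adjusted p = 0.00885) and *Gstm3* (-3.02, SE 0.42, adjusted p = 3.69e-04) had the largest sizes. In Sham Chow vs. RYGB Chow 0 of 19 passed in edgeR, DESeq2 or limma-voom, and 4 had an unadjusted p under 0.05.

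Sex-biased liver genes were listed because several Cyp3a genes are female-predominant. The female-predominant *Cyp3a41a*, *Cyp3a41b* and *Cyp3a44* stayed near 0 in Sham HFD and did not pass the filter. Of 20 other female-biased genes 12 were tested, of which 6 were higher and 2 lower in Sham HFD than in Sham Chow. The filter itself favors such rises. *Cyp2b13* passed it only through Sham HFD, at 7.59 ± 3.20 CPM there against 0.144 ± 0.203 in Sham Chow and 0.0327 ± 0.0731 in RYGB Chow. *Hao2* likewise passed it only through Sham HFD, at 9.96 ± 5.49 CPM. It was at 0.308 ± 0.267 CPM in Sham Chow, 0.399 ± 0.455 in RYGB Chow and 0.231 ± 0.221 in RYGB HFD. Both are among the 6 genes counted as higher, so that count holds genes tested only because they were high in Sham HFD. *Cyp2b13*, *Cyp2b9* and *Cyp2a4* had the largest sizes, with *Cyp2b9* at 6.17 ± 8.00 CPM in Sham Chow and 260 ± 119 in Sham HFD. Of 19 male-biased genes, 15 were lower and 0 higher in Sham HFD, among them the steroid dehydrogenase *Hsd3b5* (-7.07, SE 0.74, adjusted p = 3.71e-06). In RYGB Chow vs. RYGB HFD 1 of 12 female-biased and 2 of 19 male-biased genes were lower and none were higher. The male-biased genes rose in Sham HFD vs. RYGB HFD in 10 of 19 cases and fell in 0. The part of sex-biased expression in the Cyp3a levels was not tested.

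Position in the liver lobule was also examined, since Cyp3a11 is mainly a pericentral enzyme. Of 14 pericentral genes, 3 were higher and 2 lower in Sham HFD than in Sham Chow, where 1337 of 12289 tested genes were higher and 10.7% lower. *Glul*, glutamine synthetase of the cells around the central vein, rose by 0.86 (SE 0.13, adjusted p = 8.94e-05), and *Cyp1a2*, a pericentral P450, was lower at 181 ± 31.3 against 511 ± 168 CPM (adjusted p = 4.72e-04). Of 14 periportal genes 7 were lower and 0 higher in that comparison. In RYGB Chow vs. RYGB HFD 0 of 14 pericentral and 0 of 14 periportal genes passed in edgeR or limma-voom, with 3 and 6 at an unadjusted p under 0.05 and 0 and 2 calls with DESeq2.

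The genes outside the family whose levels were most like those of the Cyp3a genes over the 20 mice were found by Pearson r of log2(CPM + 0.5), as a description that rests mainly on the distance between chow and HFD mice. For *Cyp3a11* these were *Cyp2c55* (r = 0.940), *Cyp2c29* (r = 0.935) and *Ces2a* (r = 0.916). *Cyp2c55* and *Cyp2c29* were also among the 3 genes outside the family most like *Cyp3a25* (r = 0.950 and 0.909) and *Cyp3a59* (r = 0.908 and 0.852), together with the phosphatase subunit *Ppp1cc* (r = 0.900 and 0.898). *Cyp2c29* was at 1625 ± 186 CPM in Sham Chow and 1721 ± 516 in RYGB Chow, and on HFD at 567 ± 126 in sham and 511 ± 120 in RYGB mice. Within the family, r was 0.968 for *Cyp3a25* and *Cyp3a59*, 0.926 for *Cyp3a11* and *Cyp3a25* and 0.876 for *Cyp3a11* and *Cyp3a59*. *Cyp3a13* had r of -0.01 with *Cyp3a11*, -0.04 with *Cyp3a25* and -0.02 with *Cyp3a59*. The genes outside the family most like *Cyp3a13* were *Srsf11* (r = 0.757), *Uckl1* (r = 0.729) and *Mad1l1* (r = 0.713).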

How the data were processed

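Liver poly(A) RNA of 20 mice was sequenced as 150-base read pairs from strand-marked (dUTP) libraries. Reads were trimmed by the authors (Trimmomatic 0.36) and aligned with HISAT2 2.1.0 to mm10, and the deposited values are raw counts per Ensembl gene from featureCounts 1.5.0-p3. The annotation release, the strand setting and the treatment of reads that fit several genes are not given in the sources used here. Symbols and positions came from GENCODE M21 (54495 of 54532 genes), and promoters from RefSeq (GRCm38.p6), which matched all 8 members. Of the count columns, 0 were left unused and 0 were identical to another. The median total was 19056997 counts per mouse.

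Counts were tested with edgeR 4.0.16 (R 4.3.3): TMM factors (0.916 to 1.13), quasi-likelihood tests in 1 model of 4 groups, two-sided, Benjamini-Hochberg adjustment over 12289 genes and a threshold of 0.05. Genes under a CPM of 2 in all but 2 or fewer mice were left out. Printed CPM are scaled by the same factors. Single genes were also compared by exact permutation of log2(CPM + 0.5). The fitting procedure was tested on simulated data. Python 3.11.15, numpy 2.4.6, pandas 2.3.3, scipy 1.17.1, Biopython 1.88 (alignments) and matplotlib 3.10.9 were used.

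Members and gene lists were chosen with earlier results of these data known. Named are all members, *Nr1i2*, *Nr1i3*, *Rxra* and *Por*, from each other list at most 3 genes per direction with the largest change among those that passed, and the 3 genes outside the family most like each tested member. *Hao2* is named in addition, for how it passed the filter. Replicates are separate mice. Alternatives were RLE factors, library size only, DESeq2 1.42.0, limma-voom 3.58.1, no filter, a CPM of at least 5, only the groups of a comparison, a replicate block, summing *Cyp3a41a* and *Cyp3a41b*, and leaving out each mouse. Summing *Cyp3a25* and *Cyp3a59* and scaling per kb of coding transcript were added after seeing the data.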

Additional observations from a re-analysis of the deposited data

Results flagged for a closer look

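The diet effect on *Cyp3a59* differed between sham and RYGB mice by the test of the difference itself. Because the heavier Sham HFD mice enter this difference, surgery and body weight cannot be told apart in it. The surgery by diet interaction was -1.68 on the log2 scale (edgeR's quasi-likelihood test, SE 0.38, adjusted p = 0.0136), from log2 fold changes of -0.80 in Sham Chow vs. Sham HFD and -2.48 in RYGB Chow vs. RYGB HFD. *Cyp3a59* was lower in all 5 RYGB HFD mice than in all 5 RYGB Chow mice, while the sham groups overlapped. With each mouse left out in turn the interaction ran from -1.89 to -1.38 and its adjusted p from 0.00342 to 0.0289. Its level was low beside those of *Cyp3a11* and *Cyp3a25*, with 218 to 3349 counts per mouse. The *Cyp3a59* transcript was 97.0% identical to that of *Cyp3a25*, and with the counts of this pair summed the interaction did not pass. Each of the 4 tested genes was also searched in each of the 4 groups for a mouse far from the other 4, by Dixon's ratio of the gap to the range at its 95% critical value, and none of the 16 exceeded it, where chance gives about 1 in 20.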

How the results depend on the processing

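The falls of *Cyp3a11* in both diet comparisons and in Sham HFD vs. RYGB HFD, and of *Cyp3a25* in both diet comparisons, kept direction and call under every alternative run. With library size only, which moved the median log2 fold change of all genes by 0.127 in Sham Chow vs. Sham HFD and -0.141 in the interaction, and the share of calls that were higher from 50.3% to 80.4%, from 52.0% to 26.6% in Sham HFD vs. RYGB HFD and from 49.0% to 20.2% in the interaction, *Cyp3a13* turned from -0.04 to 0.0085 in Sham Chow vs. RYGB Chow and from -0.07 to 0.0578 in Sham Chow vs. Sham HFD, never past the threshold. Leaving out each mouse, the former ran from -0.0930 to 0.0262. The number of Cyp3a genes past the threshold in the interaction was 1, but 3 with library size only (*Cyp3a25* at adjusted p = 0.0206), 2 with DESeq2 and 0 with *Cyp3a25* and *Cyp3a59* summed, and 1 to 3 with a mouse left out. In Sham HFD vs. RYGB HFD it was 2, but 1 with that pair summed and 1 to 2 with a mouse left out, and *Cyp3a25* passed with library size only (adjusted p = 0.0244). Per kb of merged exons, the summed level was 32.9% (Sham HFD) and 25.3% (RYGB HFD) of that in Sham Chow, against 24.4% and 17.8% in CPM. The counts 3 and 3 of the diet comparisons ran from 2 to 4 over all alternatives. Replicate numbers did not pair the mice (correlations of same-numbered mice from -0.257 to 0.16, over 0.1 in 5 of 30). The fit with the replicate block changed 1 member's call, *Cyp3a59* in Sham Chow vs. Sham HFD (-0.76, adjusted p = 0.0616), which was also lost with library size only (-0.67, adjusted p = 0.0544) and in 6 of the 20 fits with a mouse left out. Over all genes, DESeq2 made 92 calls in Sham Chow vs. RYGB Chow where edgeR made 7 and limma-voom 3 (71.7%, 85.7% and 66.7% higher), 751 against 448 in RYGB Chow vs. RYGB HFD, where only the groups of the comparison gave 184, and the interaction had 622 calls, 932 with DESeq2. In Sham Chow vs. RYGB Chow, only the groups of the comparison gave 0 calls. The interaction needs all 4 groups and was not run with fewer. The causes were not tested. Counts near 3 per mouse limit what can be said of the 4 untested members.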
